A study of Bos indicus with 12 samples.

Results

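The 9 plasma cell genes JCHAIN, MZB1, TNFRSF17, PRDM1, DERL3, TXNDC5, POU2AF1, IRF4 and SDC1 were followed in blood RNA of 12 cows. They were chosen by name as genes of antibody-secreting cells and matched to the table by NCBI Gene identifier. All 9 of the 9 symbols were found among its 26229 identifiers, and all 9 were among the 15420 genes that passed the filter on low counts. The cows are Bos indicus (zebu) females of 2 breeds of India, Gir and Shweta Kapila, in the second or the third lactation. Each breed has 3 high-yielding and 3 low-yielding cows, classed within the breed from lactation records, and each library is a separate cow, so p-values measure the spread between cows. No treatment is given, and the sources used here give neither yields nor ages. Libraries are named below by breed, yield class and replicate number (Shweta Kapila low 3). By its labels the material is blood mononuclear cells (PBMC), while the RNA kit named is a PaXgene kit for whole blood. Of 13 neutrophil symbols 8 passed the filter, with a summed level of 655 to 2407 normalised counts scaled to library size (CPM) per library. The median of these genes was 4.82 to 20.2 CPM per library, so the sum came mostly from part of the list. Genes of the neutrophil list were thus detected, and the share of granulocytes was not tested.

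A plasma cell is the end state of a B cell that secretes antibody. The factors IRF4 and PRDM1 (Blimp-1) drive that change and shut down the B cell programme, and POU2AF1 is a co-activator of octamer-binding factors in B cells and plasma cells. MZB1, DERL3 and TXNDC5 act in the endoplasmic reticulum, where antibody is folded, joined and checked. JCHAIN is the chain that links units of IgM and of dimeric IgA. TNFRSF17 (BCMA) is a receptor for the survival factors APRIL and BAFF, and SDC1 (CD138) is a surface proteoglycan of mature plasma cells. Several of these genes are also used by other blood cells: PRDM1 by activated T and NK cells, IRF4 and POU2AF1 by B cells, and MZB1, DERL3 and JCHAIN by plasmacytoid dendritic cells. In bulk blood RNA, fewer cells of a type and less RNA per cell cannot be told apart. No protein, promoter or transcript sequence of these genes was used here, and no immunoglobulin gene carried a symbol, so antibody transcripts were not analysed here.

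Total counts per library ran from 14.2 to 27.2 Mcounts (megacounts). Shweta Kapila libraries differed more among themselves than Gir libraries: the chi-square per degree of freedom between 2 cows of a group ran from 32.5 to 59.5 in Gir and from 59.3 to 364 in Shweta Kapila. A group of 37 short identifiers without a name held 6.20% to 8.70% of counts in Gir cows. High-yielding Shweta Kapila cows had shares of 4.54%, 4.72% and 9.00%, and their low-yielding counterparts 13.1%, 11.7% and 5.57%. The share therefore did not follow yield class, and low 3 lay apart from low 1 and low 2.

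The 9 genes did not vary as a block. Shweta Kapila low 3 had the highest level of 7 of the 9 members (MZB1, TNFRSF17, DERL3, TXNDC5, POU2AF1, IRF4 and SDC1), while it had the highest level for 12.2% of all tested genes. Genes of some related lists also peaked in that cow, which was highest for 10 of 16 B cell surface and signalling genes (62.5%), 4 of 9 genes of the BAFF and APRIL system (44.4%) and 6 of 16 B cell identity factors (37.5%). Of 37 other antibody-secreting cell and secretory genes it was highest for 3 (8.11%), a share below that of all tested genes. The remaining members peaked elsewhere, JCHAIN in Gir high 1 and PRDM1 in Shweta Kapila low 1. Shweta Kapila low 1, a cow of the same group, had the lowest level of 3 members, MZB1, DERL3 and TXNDC5, and the lowest level for 24.4% of all tested genes. The library was singled out after its values were seen.

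**Figure D1:**
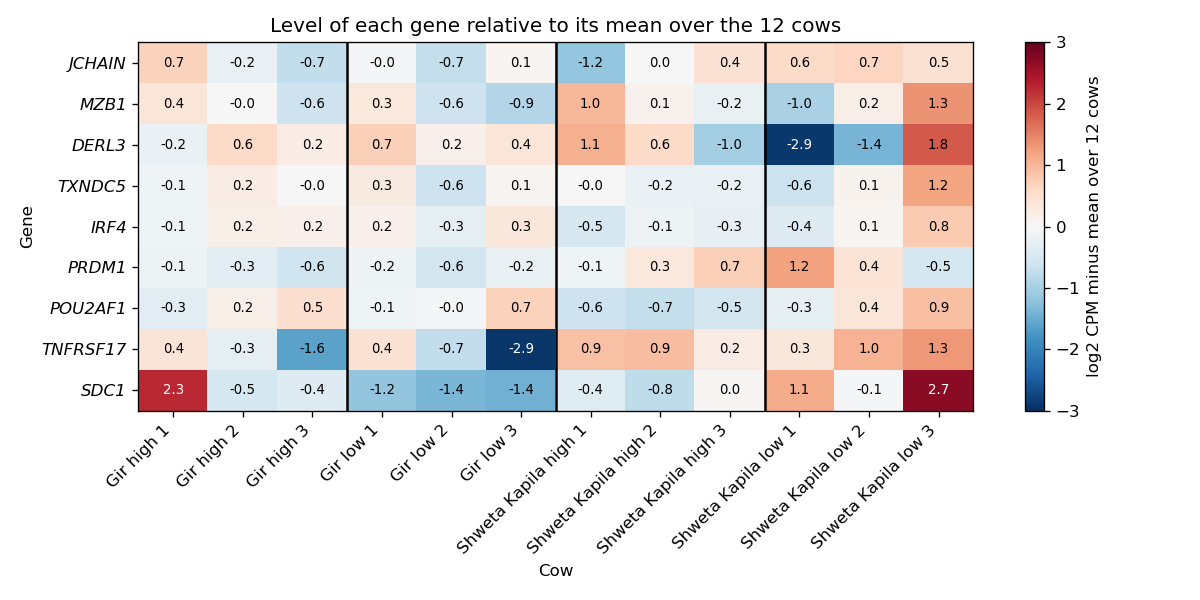
Level of each member (rows) in each of the 12 cows (columns), as log2 CPM minus the mean of that gene over all cows, with the value in each cell and black lines between the 4 groups. Shweta Kapila low 3 is above the mean for all members but PRDM1, and DERL3 is far below the mean in Shweta Kapila low 1.

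Among the endoplasmic reticulum genes, DERL3, which takes misfolded proteins out for degradation, had the widest range of levels relative to its lowest value. It stood at 15.9, 27.4 and 21.3 CPM in high-yielding and 30.0, 20.5 and 23.6 CPM in low-yielding Gir cows. Among Shweta Kapila cows the values were 38.7, 27.5 and 9.04 CPM in high-yielding and 2.36, 6.85 and 65.5 CPM in low-yielding cows. The 6 Gir cows were close together, whereas low 3 was 27.8 times low 1 within a single group of Shweta Kapila cows. The group means were almost alike, 25.1 ± 14.97 CPM with high and 24.9 ± 35.3 CPM with low yield (mean ± SD, n = 3 each), at a log2 fold change of 0.01 ± 0.87 (SE). This value rested on low 3, and without that cow it was 2.44. The standard deviation of log2 CPM of DERL3 over all cows was larger than that of 96.9% of tested genes.

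MZB1, a co-chaperone for antibody assembly, stood at 20.1, 15.4 and 10.2 CPM in high-yielding and 19.3, 10.1 and 8.45 CPM in low-yielding Gir cows. In Shweta Kapila it stood at 31.5, 17.1 and 13.3 CPM with high and 7.87, 18.1 and 39.7 CPM with low yield. All 4 groups overlapped, and low 1 and low 3 were again at opposite ends. The log2 fold change for yield was 0.27 ± 0.54 in Gir (0.02 without high 1 and 0.71 without low 1) and −0.09 ± 0.54 in Shweta Kapila, and 0.67 in Shweta Kapila without low 3.

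TXNDC5, a disulfide isomerase, stood at 81.6, 104 and 88.8 CPM in high-yielding and 107, 57.9 and 95.1 CPM in low-yielding Gir cows. The Shweta Kapila values were 88.6, 77.7 and 77.1 CPM with high and 57.6, 96.5 and 205 CPM with low yield. Low 3 stood alone, at 1.91 times the next highest of the 12 libraries. The log2 fold change for yield in Shweta Kapila was −0.56 ± 0.38. It was 0.07 without low 3, −0.90 without low 1 and −1.31 without the 3 largest libraries (high 3, low 1 and low 2 of Shweta Kapila). That last fit kept low 3 as the only low-yielding Shweta Kapila cow.

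JCHAIN, the secreted member, did not follow the endoplasmic reticulum genes. It stood at 287, 151 and 106 CPM in high-yielding and 171, 107 and 184 CPM in low-yielding Gir cows, so these groups overlapped fully. In Shweta Kapila it stood at 79.4, 178 and 237 CPM with high and 262, 278 and 243 CPM with low yield. Here all 3 low-yielding cows were above all 3 high-yielding cows, which holds in that direction for 3.7% of all tested genes. The group means were 165 ± 79.4 against 261 ± 17.4 CPM (SD, n = 3 each). This gave −0.67 ± 0.41 as the fitted log2 fold change, which was −0.33 without high 1 and −1.02 without high 3. The gene did not pass edgeR's quasi-likelihood test (adjusted p = 0.655). Low 3, highest for most members, was the lowest of its group for JCHAIN.

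**Figure D2:**
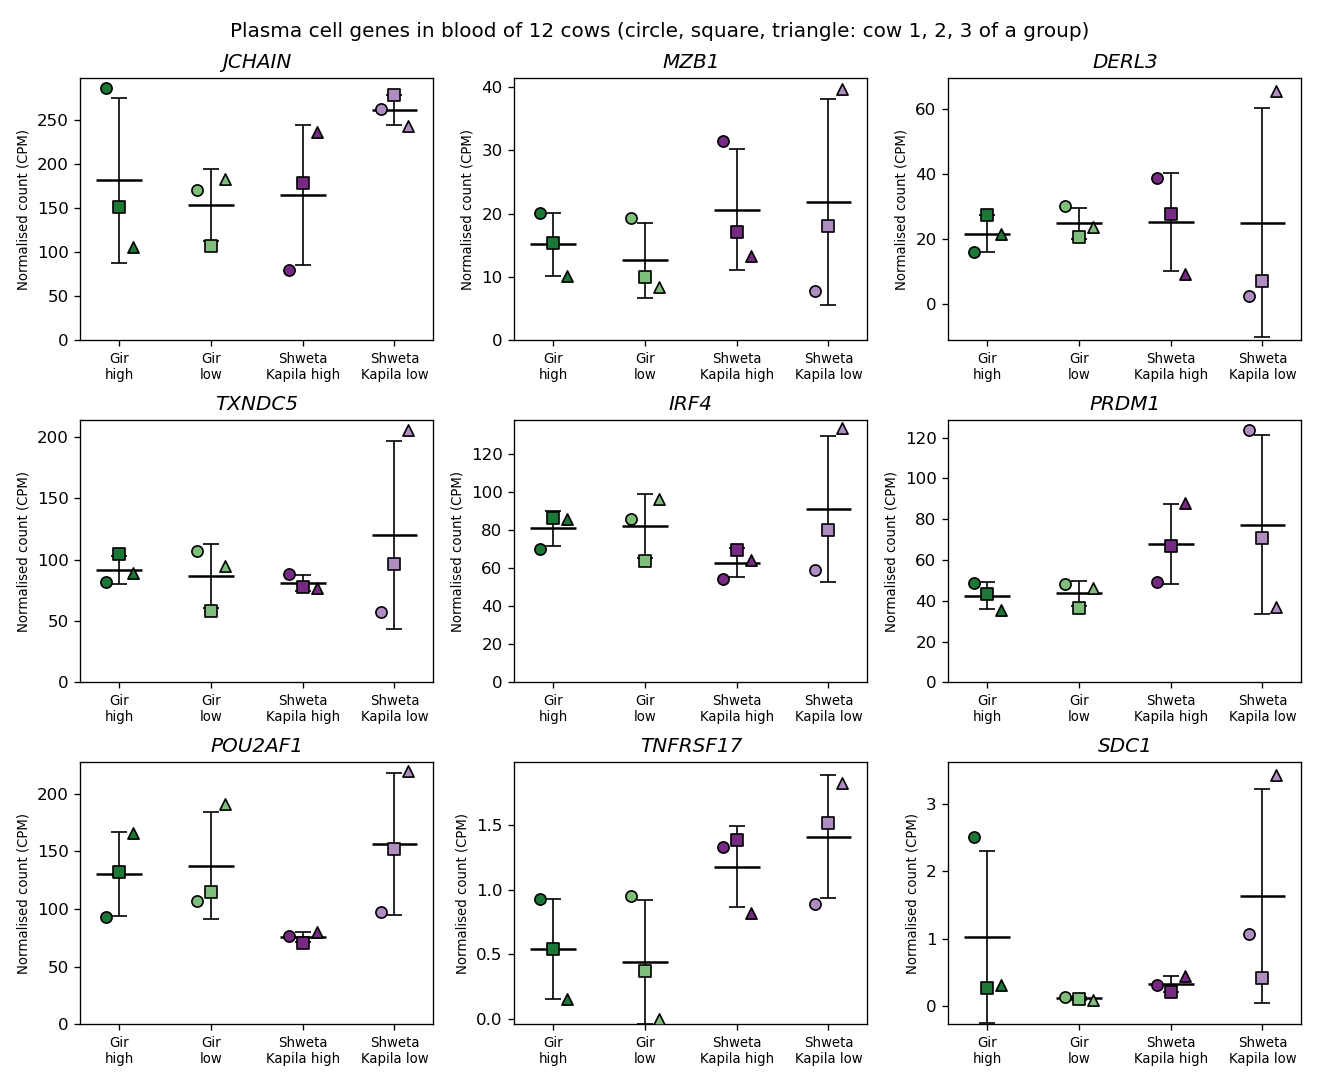
Normalised counts (CPM, linear axes) of the 9 members in the 4 groups of 3 cows, with each cow as a point, horizontal lines for means and vertical bars for SD. In Shweta Kapila, JCHAIN and POU2AF1 show no overlap between the yield classes, as for 3.7% of all tested genes in that direction. The triangle of low 3 is the top point of the low-yielding group for all members but JCHAIN and PRDM1.

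Of the 3 factors, POU2AF1 had the lowest p of all members for yield in Shweta Kapila. It stood at 76.4, 70.9 and 80.0 CPM in high-yielding and 97.6, 152 and 220 CPM in low-yielding cows. The groups did not overlap, which holds in that direction for 3.7% of all tested genes. Their means were 75.8 ± 4.58 against 156 ± 61.2 CPM (mean ± SD, n = 3 each). The log2 fold change was −1.04 ± 0.33, with an unadjusted p = 0.00752 and an adjusted p = 0.631 in edgeR's quasi-likelihood test. It was −1.58 without the 3 largest libraries, where low 3 was the only low-yielding Shweta Kapila cow. Without low 3 the mean of the low-yielding cows was 125 CPM. In Gir POU2AF1 stood at 93.0, 132 and 165 CPM with high and 107, 115 and 191 CPM with low yield, and these groups overlapped (−0.08 ± 0.32).

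IRF4 stood at 70.2, 86.5 and 85.7 CPM in high-yielding and 85.7, 63.7 and 96.4 CPM in low-yielding Gir cows. Shweta Kapila cows had 54.5, 69.5 and 64.2 CPM with high and 59.1, 79.8 and 133 CPM with low yield. It had the smallest range of the 9 members, 2.45-fold from the lowest to the highest library, and the groups overlapped within both breeds. The log2 fold change for yield was −0.02 ± 0.29 in Gir and −0.53 ± 0.29 in Shweta Kapila. The latter rested on low 3, at −0.15 without that cow. It was −1.10 without the 3 largest libraries, where low 3 was the only low-yielding Shweta Kapila cow. The B cell surface and signalling genes shifted in the same direction in Shweta Kapila, where 15 of 16 tested members were below 0 (median −0.78), against 51.7% of all genes, and 6 had an unadjusted p under 0.05, against 2.93% of all genes on that side. Without low 3 these were 11 of 16 (median −0.41), against 48.8% of all genes, and 2 of 16, against 12.4%. Their summed level was 1536 to 1680 CPM in high-yielding and 1554 (low 1), 2399 (low 2) and 4307 CPM (low 3) in low-yielding Shweta Kapila cows, so low 1 lay within the high-yielding range. It was 2129 to 2863 and 1987 to 3539 CPM in high-yielding and low-yielding Gir cows. No tested member of that list was at 0, MS4A1 and CR2 had no match, and the part of B cells in the POU2AF1 and IRF4 values was not tested.

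PRDM1 differed from the other factors. It stood at 48.6, 43.4 and 35.7 CPM in high-yielding and 48.3, 36.4 and 46.1 CPM in low-yielding Gir cows. Shweta Kapila values were wider, at 49.0, 66.9 and 88.1 CPM with high and 124, 71.0 and 37.1 CPM with low yield. Of the 6 Shweta Kapila cows 5 were above all 6 Gir cows, and the exception was low 3, which lay within the Gir range. The log2 fold change for Gir against Shweta Kapila was −0.75 ± 0.26 (unadjusted p = 0.0139, adjusted p = 0.399 in edgeR's quasi-likelihood test). Without low 3 it was −0.92 and passed (adjusted p = 0.0368 in edgeR), in a fit that called 2.84% of 15755 genes, and without low 1 it was −0.49. Without the 3 largest libraries it was −0.10, in a fit that kept low 3 as the only low-yielding Shweta Kapila cow. Limma-voom with sample weights, which gave Shweta Kapila low 2 a weight of 6.62 and low 3 one of 0.184, also called PRDM1 (−0.73, adjusted p = 0.0138). It called 16.7% of all genes. T cell and NK genes were on the same side of this comparison. In the T cell list 14 of 19 tested members were below 0 (median −0.39, 10 with an unadjusted p under 0.05), and in the NK and cytotoxic list 12 of 13 (median −0.77, 8 with an unadjusted p under 0.05). Of all genes 54.9% were below 0, and 5.79% were on that side with an unadjusted p under 0.05. The summed level of the T cell list was 3089 to 4692 CPM in low-yielding and 3380 to 3711 CPM in high-yielding Gir cows. In Shweta Kapila it was 6719, 6098 and 5370 CPM in high 1 to high 3 and 5063, 4249 and 3117 CPM in low 1 to low 3. The NK list summed to 515 to 958 and 616 to 1203 CPM in high-yielding and low-yielding Gir cows. Its Shweta Kapila sums were 4283, 2992 and 1746 CPM in high 1 to high 3 and 1570, 1089 and 856 CPM in low 1 to low 3. Across high 1, high 2, high 3 and low 1 of Shweta Kapila both sums fell while PRDM1 rose. From low 1 to low 3 both sums and PRDM1 fell. No tested member of either list was at 0, NK symbols with no match were GZMB, NCR1, KLRB1 and GNLY, and the part of T and NK cells in the PRDM1 values was not tested.

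The surface members were near the limit of counting. TNFRSF17 had 16, 10 and 3 counts in high-yielding and 14, 7 and 0 counts in low-yielding Gir cows. Shweta Kapila cows had 21, 26 and 22 counts with high and 20, 33 and 32 counts with low yield. A count of 0 in Gir low 3 allows up to 3 counts, or 0.143 CPM in that library. The 2 breeds overlapped, with 0 to 0.950 CPM in Gir and 0.822 to 1.83 CPM in Shweta Kapila. The fitted log2 fold change for breed was −1.42 ± 0.64 (adjusted p = 0.509 in edgeR's quasi-likelihood test), or −2.02 without Gir low 1. Limma-voom with sample weights called TNFRSF17 (−1.96, adjusted p = 0.0367), among 16.7% of all genes.

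SDC1 had 43, 5 and 6 counts in high-yielding and 2, 2 and 2 counts in low-yielding Gir cows. These groups did not overlap, which holds in that direction for 5.12% of all tested genes. In Shweta Kapila it had 5, 4 and 12 counts with high and 24, 9 and 60 counts with low yield, and these groups overlapped when scaled to CPM. From summed counts the Gir level was 8.96 times as high with high yield (95% interval 3.86 to 25.5, exact, counting error only). Without high 1 the ratio was 2.66 (0.900 to 8.75), so most of the Gir difference was in that cow. In Shweta Kapila the ratio of low-yielding to high-yielding cows was 4.40 (2.72 to 7.44), and 2.18 (1.22 to 3.96) without low 3. The fitted log2 fold changes were 3.13 ± 1.07 in Gir, or 1.35 without high 1, and −2.27 ± 0.94 in Shweta Kapila, or −1.15 without low 3. Without the 3 largest libraries the latter was −3.67, with low 3 as the only low-yielding Shweta Kapila cow. Limma-voom with sample weights gave 1.87 and −0.76. The Gir change minus the Shweta Kapila change was 5.41 ± 1.42, with an unadjusted p = 0.00242 and an adjusted p = 0.955 in edgeR's quasi-likelihood test (3.62 without Gir high 1 and 4.28 without Shweta Kapila low 3). SDC1 is also an epithelial gene. Of 11 epithelial symbols 2 passed the filter, EPCAM and CDH1, with summed levels of 3.92 to 12.9 and 6.50 to 12.0 CPM in high-yielding and low-yielding Gir cows. The sums were 2.66 to 16.7 and 1.88 to 16.2 CPM in the same classes of Shweta Kapila. In Shweta Kapila low 3, where SDC1 was highest, EPCAM and CDH1 were at 1.08 and 0.799 CPM. In Gir high 1, the next highest for SDC1, they summed to 12.9 CPM, against 4.46 and 3.92 CPM in Gir high 2 and high 3. Gir low 2, with 2 counts of SDC1, had a sum of 12.0 CPM. The part of epithelial RNA in the SDC1 values was not tested.

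Over all 9 members, edgeR's quasi-likelihood test on all 12 libraries called 0 members and 0% of all genes in each of the 5 comparisons. With an unadjusted p under 0.05 were 1 member in Gir for yield (SDC1, against 1.89% of all genes) and 2 in Shweta Kapila (POU2AF1 and SDC1, against 6.98%). These were 1 for yield over both breeds (POU2AF1, against 4.13%), 1 for the difference between the breeds in the yield change (SDC1, against 3.81%) and 2 for breed (PRDM1 and TNFRSF17, against 9.57%). DESeq2 called 0 members in each comparison, where it called 0.00649%, 0.396%, 0.0259%, 0.0584% and 1.26% of all genes in the same order. Limma-voom with sample weights called 2 members in Shweta Kapila (DERL3 at 1.83 and POU2AF1 at −1.01, adjusted p = 0.0138 and 0.0165), where it called 25.3% of all genes. For breed it called 2 members (PRDM1 and TNFRSF17) and 16.7% of all genes. It called 0 members in the other 3, with 0.00649% of all genes for yield in Gir, 8.36% for yield over both breeds and 8.57% for the difference between the breeds. Its weights for low 1, low 2 and low 3 of Shweta Kapila were 0.575, 6.62 and 0.184, so that group's mean rested mostly on low 2. The median log2 fold change of the members was 0.08 in Gir (−0.02 over all genes) and −0.53 in Shweta Kapila (−0.02 over all genes). In Shweta Kapila 8 of 9 members were below 0, against 51.7% of all genes, and DERL3 was the exception. Both values rested on low 3: without it 6 of 9 were below 0, against 48.8% of all genes, and the median was −0.15. In Gir 4 of 9 were below 0, against 52.6%. For breed the median was −0.31 (−0.04 over all genes), with 7 of 9 below 0 against 54.9%, and without Shweta Kapila low 3 it was −0.24, with 5 of 9 below 0 against 49.7%.

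**Figure D3:**
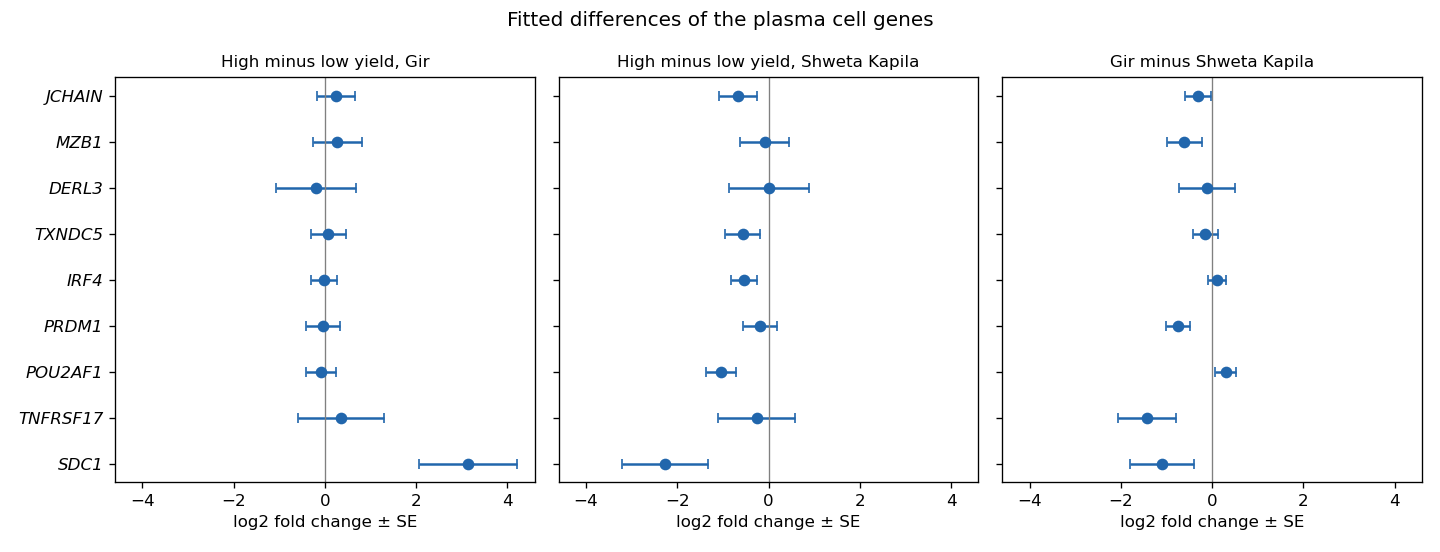
Fitted log2 fold changes of the 9 members (points) with their standard errors (bars) for yield in Gir, yield in Shweta Kapila and Gir against Shweta Kapila. In Gir the bars of all members but SDC1 reach 0, whereas several bars in the other panels do not, among them POU2AF1 in Shweta Kapila and PRDM1 for breed. SDC1 lies to the right in Gir and to the left in Shweta Kapila.

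In the order of group means, low-yielding Shweta Kapila cows were highest for 8 of the 9 members, with DERL3 the exception, and neighbouring groups mostly overlapped. That order rested on low 3, since without it the group was highest for 3 members (JCHAIN, TNFRSF17 and PRDM1). For JCHAIN, MZB1, TNFRSF17, DERL3 and TXNDC5 every group overlapped its neighbour in that order. PRDM1 ran from low-yielding and high-yielding Shweta Kapila to low-yielding and high-yielding Gir cows, and high-yielding Shweta Kapila cows were all above low-yielding Gir cows, as for 5.41% of all genes. POU2AF1 and IRF4 both ran from low-yielding Shweta Kapila through low-yielding and high-yielding Gir to high-yielding Shweta Kapila cows, and high-yielding Gir cows were all above that last group, as for 6.01% of all genes. For SDC1 low-yielding Gir cows were lowest and again all below high-yielding Shweta Kapila cows, the next in order.

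Pairs of members were compared over the 12 cows by the correlation of log2 CPM. Of 36 pairs 25 had a Pearson r above 0, the median r was 0.24, and 3 pairs passed adjustment over the 36. All members share the sequencing depth and the scaling of each library, which are sources of common variation. POU2AF1 and IRF4 had r = 0.844 (permutation p = 0.0004, 0.0144 after adjustment). Their Spearman rho was 0.790 (permutation p = 0.00347, 0.0625 after adjustment), and r was 0.696 once the 2 farthest cows were left out. Within Gir r was 0.702 (exact permutation p = 0.129, 0.596 after adjustment) and within Shweta Kapila 0.881 (exact permutation p = 0.0222, 0.150 after adjustment). TXNDC5 and IRF4 had r = 0.855 (permutation p = 0.00095, 0.0171 after adjustment). Here Spearman rho was 0.804 (permutation p = 0.00273, 0.0625 after adjustment), and r was 0.612 once the 2 farthest cows were left out. Within Gir r was 0.846 (exact permutation p = 0.0222, 0.200 after adjustment), and within Shweta Kapila it was 0.906 (exact permutation p = 0.0403, 0.150 after adjustment). These 2 pairs thus had the same sign in both breeds.

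PRDM1 and DERL3 went in opposite directions, with r = −0.820 (permutation p = 0.00177, 0.0212 after adjustment). Spearman rho was −0.462 (permutation p = 0.134, 0.344 after adjustment), and r was −0.506 once the 2 farthest cows were left out. Within Shweta Kapila r was −0.942 (exact permutation p = 0.00417, 0.0750 after adjustment), whereas within Gir it was 0.136 (exact permutation p = 0.803, 0.932 after adjustment), so the relation did not hold within Gir. The share of the unnamed short identifiers moved with these genes. Its correlation with DERL3 was r = −0.899 (permutation p = 7e-05, 0.00126 after adjustment over 18 relations) and rho = −0.846 (permutation p = 0.00077, 0.0139 after adjustment), or r = −0.690 once the 2 farthest cows were left out. Within Shweta Kapila r was −0.937 (exact permutation p = 0.0125, 0.138 after adjustment), and within Gir −0.203 (exact permutation p = 0.701, 0.900 after adjustment). For PRDM1 r with the share was 0.655 (permutation p = 0.0205, 0.0925 after adjustment) and rho was 0.392 (permutation p = 0.212, 0.424 after adjustment). That r was 0.150 once the 2 farthest cows were left out, so the relation rests on those cows, and it was −0.05 within Gir and 0.777 within Shweta Kapila. DERL3 also correlated with the log2 total count, with r = −0.784 (permutation p = 0.00231, 0.0208 after adjustment) and rho = −0.699 (permutation p = 0.0142, 0.0853 after adjustment), or r = −0.617 once the 2 farthest cows were left out. With the total count r was −0.897 within Shweta Kapila (exact permutation p = 0.0417, 0.188 after adjustment) and −0.204 within Gir (exact permutation p = 0.704, 0.900 after adjustment). The part of the share and of the total count in the DERL3 and PRDM1 values was not tested.

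**Figure D4:**
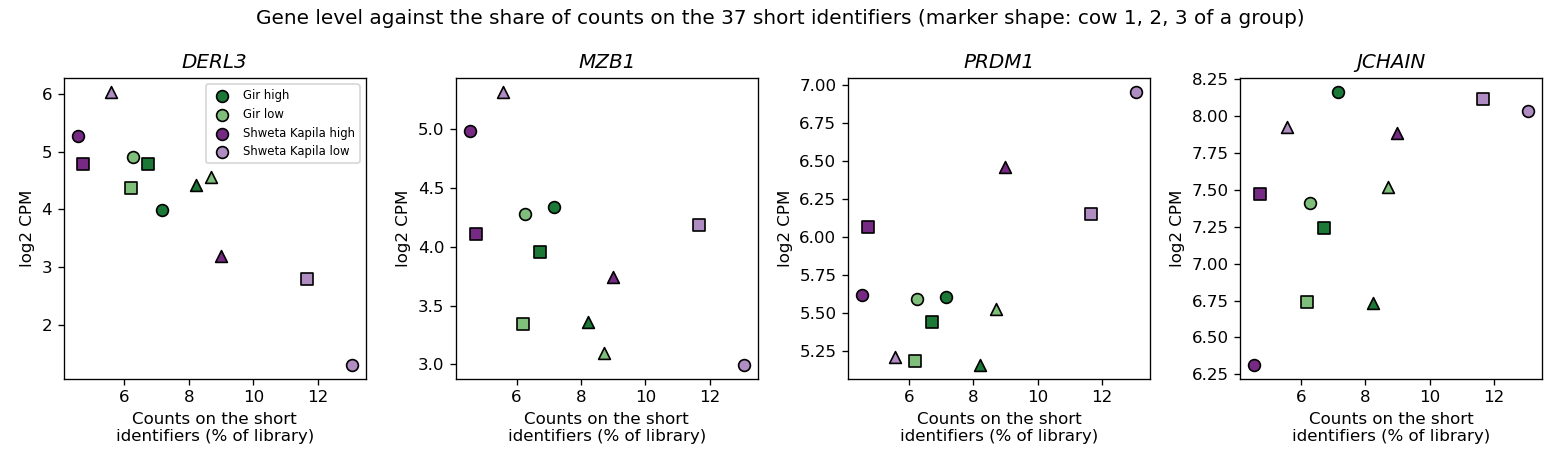
log2 CPM of DERL3, MZB1, PRDM1 and JCHAIN (vertical axes) against the percent of a library's counts on the 37 short identifiers (horizontal axes), with a point for each of the 12 cows. The 3 cows with the largest shares, all Shweta Kapila, have the 3 lowest levels of DERL3.

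The genes whose levels most resembled each member but SDC1 were taken as the 3 of highest Pearson r over the 12 cows among 11895 other genes with a symbol. This describes likeness in these libraries and says nothing of shared control. POU2AF1 was most like FCRLA (r = 0.940), an Fc receptor-like protein of B cells, PAX5 (r = 0.931), the factor that keeps B cell identity, and KIAA0040 (r = 0.926). IRF4 was most like HVCN1 (r = 0.969), a proton channel of B cells, SLC7A1 (r = 0.951), a transporter of cationic amino acids, and TNFRSF21 (r = 0.935). TXNDC5 was most like TNFRSF13C (r = 0.918), the BAFF receptor of B cells, ZDHHC14 (r = 0.914) and CADM4 (r = 0.893), and these fell to between 0.765 and 0.804 without Shweta Kapila low 3. MZB1 was most like UCK2 (r = 0.884), a uridine-cytidine kinase, SRM (r = 0.883), spermidine synthase, and PRKCSH (r = 0.870), a subunit of glucosidase II in the endoplasmic reticulum. DERL3 was most like ABCB8, CDIP1 and CBX6 (r = 0.985, 0.985 and 0.984), and PRDM1 was most like DENND1B, MDM2 and UFL1 (r = 0.966, 0.966 and 0.960). JCHAIN was most like ABRAXAS1, DCLRE1C and TMEM260 (r = 0.884, 0.881 and 0.860). TNFRSF17 was most like TXN (r = 0.886), MTBP (r = 0.849) and TEX46 (r = 0.838), a member that rests on few counts.

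Other genes of the antibody-secreting programme were read from a list of 37 symbols, all of which were tested and 0 of which passed in any comparison. In Gir 21 were above and 16 below 0 for yield (median 0.04, 0 with an unadjusted p under 0.05). In Shweta Kapila 16 were above and 21 below (median −0.10), and 2 on the lower side had an unadjusted p under 0.05 (2.93% of all genes), PDIA6, a disulfide isomerase (−0.62 ± 0.22), and ZBTB20, a transcriptional repressor (−0.75 ± 0.34). For breed 28 of 37 were below 0 (median −0.22), against 54.9% of all genes, 10 of them with an unadjusted p under 0.05, against 5.79% of all genes on that side. SLAMF7, a receptor of plasma cells and also of NK cells, stood at −1.59 ± 0.40 (adjusted p = 0.278 in edgeR's quasi-likelihood test). SEC11C and SPCS1, parts of the signal peptidase, stood at −0.69 ± 0.20 and −0.59 ± 0.18. The list held genes that followed DERL3 and genes that did not. BHLHA15 (MIST1), a factor of secretory cells, stood at 2.13, 4.14 and 30.5 CPM in low-yielding and 43.5, 21.9 and 6.24 CPM in high-yielding Shweta Kapila cows. HSP90B1, the chaperone GRP94, stood at 1016, 1037 and 390 CPM in low-yielding and 377, 329 and 717 CPM in high-yielding Shweta Kapila cows. Both set low 1, low 2 and high 3 apart from the other 3 Shweta Kapila cows, in opposite directions. In Shweta Kapila low 3 the highest level was reached by 3 of the 37 genes (EAF2, ITM2C and PIGR), or 8.11%, where the value over all genes is 12.2%.

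The BAFF and APRIL system around TNFRSF17 was a list of 9 genes, all tested and 0 called. It held ligands and receptors, and also TRAF2, TRAF3, NFKB2, RELB and MCL1, which are neither. TNFSF13 (APRIL) stood at 0.78 ± 0.28 for yield in Gir (37.05, 38.7 and 55.4 CPM with high and 26.7, 24.9 and 24.8 CPM with low yield), with an unadjusted p = 0.0172 and an adjusted p = 1 in edgeR's quasi-likelihood test. All 3 high-yielding cows were above the low-yielding ones, as for 5.12% of all tested genes. TNFSF13B (BAFF) stood at 0.65 ± 0.48. In Shweta Kapila 7 of the 9 were below 0 (median −0.29), including the BAFF receptor TNFRSF13C at −0.71 ± 0.48, or 4 of 9 without low 3 (median 0.07). Of all genes 51.7% and 48.8% were below 0 in these fits. TNFRSF13C stood at 20.6, 38.7 and 117 CPM in low 1 to low 3.

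The factors that hold B cell identity, most of which are silenced by PRDM1 or give way to it, were a list of 17 symbols of which 16 were tested. For yield 15 of 16 were below 0 in Shweta Kapila (median −0.32). Of these 3 had an unadjusted p under 0.05, against 2.93% of all genes on that side. Without low 3, 10 of 16 were below 0 (median −0.29). Then 3 were lower and 1 was higher with such a p, against 12.4% and 19.3% of all genes. In Gir 11 of 16 were below 0 (median −0.24), 1 with such a p, which 1.89% of all genes had on either side. Of all genes 51.7%, 48.8% and 52.6% were below 0 in these fits. MEF2C stood at −0.91 ± 0.28, PAX5 at −1.30 ± 0.49 and EBF1 at −1.02 ± 0.40 in Shweta Kapila, and 0 passed. PAX5 stood at 83.7, 96.8 and 86.4 CPM in high-yielding and 83.4, 162 and 413 CPM in low-yielding Shweta Kapila cows, so low 1 lay with the high-yielding cows. For breed 14 of 16 were above 0 (median 0.22), where 54.9% of all genes were below, with the exceptions including IKZF3 (Aiolos) at −0.58 ± 0.15.

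Of the plasmacytoid dendritic cell list 11 of 19 symbols were tested, since IL3RA, LILRA4, CLEC4C and IRF7, among others, had no match. SPIB and IRF8 were also on the list of B cell identity factors, so these lists are not independent. In Shweta Kapila 10 of 11 were below 0 for yield (median −0.64), or 6 of 11 without low 3 (median −0.66), 3 with an unadjusted p under 0.05 in both fits, led by TCF4 (−1.33 ± 0.35). Of all genes 51.7% and 48.8% were below 0 in these fits, and 2.93% and 12.4% were on that side with an unadjusted p under 0.05. The summed level of the list was 428 to 508 CPM in high-yielding and 622 to 1174 CPM in low-yielding Shweta Kapila cows, and 613 to 823 and 630 to 1022 CPM in the same classes of Gir. The part of these cells in the MZB1, DERL3 and JCHAIN values was not tested. Genes of dividing cells, which short-lived plasmablasts use, were below 0 for 14 of 17 in Shweta Kapila (median −0.39), or 13 of 17 without low 3 (median −0.64), and for 7 of 17 in Gir (median 0.05), with 0 called. Of all genes 51.7%, 48.8% and 52.6% were below 0 in these fits. Without low 3, 8 of 17 were lower with an unadjusted p under 0.05, against 12.4% of all genes, and 1 was higher. With all cows 0 were lower with such a p, against 2.93%. The summed level of these dividing-cell genes was 398 to 1312 CPM in low-yielding and 580 to 631 CPM in high-yielding Shweta Kapila cows.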

How the data were processed

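RNA-seq of blood was analysed in 12 libraries, 3 cows in each of 4 groups. The values the authors deposited are expected counts, without scaling, and 57.0% of them were not whole (tolerance 1e-06). Trimmomatic and FastQC are named per the submitters' processing notes. The library kit marks strand, per the labels' protocols. The sources used here name no aligner, counting program, build or annotation, so reads of near-identical or overlapping genes may be split in unknown ways.

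Symbols came by identifier from a RefSeq table (assembly NIAB-ARS_B.indTharparkar_mat_pri_1.0), which matched 22754 of 26229 identifiers (86.8%). Coordinates were not used. Rounded counts went into edgeR 4.0.16 (R 4.3.3). The low-count filter was filterByExpr (minimum count 10, total 15), and libraries were scaled by TMM. Genes were fitted with a mean per group and robust quasi-likelihood, all groups sharing the estimate of spread. Tests were 2-sided with Benjamini-Hochberg adjustment over 15420 genes at 0.05. The 5 comparisons were yield in Gir, yield in Shweta Kapila, their mean, their difference, and breed. The fit was tested on simulated data for yield in Gir. It called 5 of 100 genes given a log2 change of 1 and 79 of 100 given a log2 change of 3, with 5 false calls. A gene that is not called may therefore still differ 2-fold.

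Log2 CPM used a prior count of 2. Correlations used 100000 permutations over 12 cows (exact within a breed), run with SciPy 1.17.1, pandas 2.3.3 and NumPy 2.4.6 under Python 3.11.15, with plots from matplotlib 3.10.9. Alternatives included DESeq2 1.42.0 and limma 3.58.1 (voom with sample weights). Gene length is not in the tables as transcript length, so levels are not compared between genes. The members and lists were chosen with earlier results of these data known. All members are named, up to 3 genes of lowest p per list and comparison, and the 3 genes most like each member. For SDC1 the latter are not reported here. MS4A1, CR2, EPCAM, CDH1 and the symbols with no match are named for the state of their lists.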

Additional observations from a re-analysis of the deposited data

How the results depend on the processing

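DESeq2 size factors in place of TMM, and no filter on low counts (23042 genes tested), left the number of called members at 0 in each comparison. Depth limits SDC1 and TNFRSF17, with at most 60 counts in a library. Genes called for yield in Gir, yield in Shweta Kapila, yield over both breeds, the difference between the breeds and breed numbered 1, 61, 4, 9 and 195 with DESeq2, against 0 in each with edgeR. With limma-voom and sample weights they numbered 1, 3908, 1289, 1321 and 2580, and the called members were 2 in Shweta Kapila and 2 for breed. For breed, 3 genes were called without a filter, 24 with the short identifier share as a covariate and 31 without the 3 largest libraries, which also gave 3 in Shweta Kapila and 1 over both breeds. When each cow was left out in turn, called genes ranged from 0 to 2 in Shweta Kapila, from 0 to 1 for the difference between the breeds and from 0 to 447 for breed, where called members ranged from 0 to 1 (PRDM1, without Shweta Kapila low 3). The cause was not tested.

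Replicate numbers are shared by the groups but did not pair the cows. Of 18 same-numbered pairs 3 had deviations correlated above 0.1 (range −0.56 to 0.34), and 3 of 12 libraries correlated best with their own number. With the replicate number as a block, 0 members were called in each comparison and 1 gene was called for breed. The block turned 3 log2 fold changes, TNFRSF17 to −0.0096 and DERL3 to 0.17 over both breeds, and DERL3 to 0.026 for breed.

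Other turns of sign concerned log2 fold changes near 0 or with wide errors. Limma-voom gave 0.012 for PRDM1, 0.047 for POU2AF1 and 0.10 for IRF4 in Gir, 0.062 for MZB1 in Shweta Kapila, 0.87 for DERL3 and 0.0071 for TXNDC5 over both breeds, and 0.88 for DERL3 for breed. DERL3 in Shweta Kapila was −0.00035 with DESeq2 size factors, −0.00078 with DESeq2 and −0.00073 with that breed fitted alone. With the share as a covariate PRDM1 was 0.62 and DERL3 −0.996 in Shweta Kapila. Over both breeds MZB1 was −0.27, TNFRSF17 −0.29 and PRDM1 0.27, for the difference between the breeds PRDM1 was −0.70 and DERL3 0.87, and for breed DERL3 was 0.21. Without the 3 largest libraries, with low 3 as the only low-yielding Shweta Kapila cow, PRDM1 was 0.65 and DERL3 −0.99 in that breed. Over both breeds MZB1 was then −0.22, TNFRSF17 −0.035, PRDM1 0.31 and SDC1 −0.27, for the difference PRDM1 was −0.68 and DERL3 0.79, and for breed IRF4 was −0.15.

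Leaving out each cow in turn also moved log2 fold changes across 0. In Gir the ranges were −0.25 to 0.51 for JCHAIN, −0.28 to 1.55 for TNFRSF17, −0.15 to 0.079 for PRDM1, −0.14 to 0.26 for TXNDC5, −0.29 to 0.23 for POU2AF1 and −0.17 to 0.11 for IRF4. In Shweta Kapila they were −0.51 to 0.67 for MZB1, −0.52 to 0.32 for PRDM1, −0.53 to 2.44 for DERL3 and −0.90 to 0.075 for TXNDC5. Over both breeds they were −0.12 to 0.47 for MZB1, −0.27 to 0.65 for TNFRSF17, −0.28 to 0.14 for PRDM1, −0.36 to 1.12 for DERL3, −0.41 to 0.077 for TXNDC5 and −0.46 to 0.99 for SDC1. For the difference they were −0.39 to 0.80 for MZB1, −0.017 to 1.81 for TNFRSF17, −0.36 to 0.48 for PRDM1 and −2.64 to 0.33 for DERL3. For breed they were −0.36 to 1.1 for DERL3 and −0.30 to 0.17 for TXNDC5.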

Other observations

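Ratios between members within a library are free of library scaling, and since gene length is the same in every cow they can be set side by side between cows. The ratio of PRDM1 to DERL3 lay between 1.59 and 3.07 in the 6 Gir cows. In Shweta Kapila it was 1.27, 2.43 and 9.75 with high yield and 52.6, 10.4 and 0.565 with low yield, so the highest and the lowest of all 12 cows were in a single group. The ratio of JCHAIN to MZB1 ran from 8.81 to 21.7 in Gir. It was 2.53, 10.4 and 17.8 with high and 33.3, 15.4 and 6.13 with low yield in Shweta Kapila, where the same low 1 was again the highest cow.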
